A study of Sus scrofa with 8 samples.

Results

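The genes described here are FBXO32, the forkhead factors FOXO1 and FOXO3, and SESN1, measured in the back muscle of Korean native pigs and Yorkshire pigs. The members named for this set were 5 genes: FBXO32, TRIM63, FOXO1, FOXO3 and SESN1. Their probe sets were taken where GEO's platform annotation gave exactly 1 gene symbol equal to a member, which left 4 of 6765 annotated genes with 2 probe sets each, or 8 of the 24123 probe sets on the array. TRIM63, which encodes the muscle ubiquitin ligase MuRF1, was passed over because the annotation pairs its probe set with a second gene. The members were proposed with the signal difference between the breeds in view and are treated as selected on it, so every breed difference of a member below is a description and carries no test.

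Each array held total RNA from the longissimus dorsi of a single pig. Of the 8 pigs, 4 were Korean native pigs sampled at 7 months and 4 were of the Yorkshire breed, sampled at 6 months. The purpose was to find genes expressed differently between the breeds. All pigs were kept under the same conditions according to the labels, which call the samples of a breed biological replicates and do not give their sex, litter or day of sampling. Since age differs with breed, their effects cannot be told apart. The spread between pigs of a breed is the error used throughout, and the number of arrays limits the precision.

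FBXO32 encodes atrogin-1, the substrate-binding subunit of an SCF ubiquitin ligase that marks muscle proteins for the proteasome. In fasting, disuse and glucocorticoid excess its transcript rises in rodent muscle, together with that of TRIM63. FOXO1 and FOXO3 are transcription factors held in the cytoplasm when insulin or IGF1 activates AKT, and they enter the nucleus and switch on FBXO32 when that signal falls. SESN1 encodes sestrin 1, a stress protein that restrains mTORC1 and is itself a target of FOXO3 and p53. AKT acts on the FOXO proteins rather than on their transcripts, so the array measures the amount of FOXO message and not FOXO activity.

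FBXO32 had the higher mean in Korean native pigs on both of its probe sets, by about the same factor. On the brighter probe set the signal in Korean native pigs 1 to 4 was 4402, 4052, 9371 and 6353, against 1376, 2236, 5099 and 3452 in Yorkshire pigs 1 to 4. Yorkshire 3 lay above Korean native pigs 1 and 2, so the breeds overlapped, but the Korean native pig had the higher signal in 14 of the 16 possible pairs of pigs. The mean signal was 6045 ± 2438 in Korean native pigs, against 3041 ± 1615 in Yorkshire pigs (mean and SD of 4 pigs). On the scale of log2(signal + 32), used for all differences, FBXO32 differed by 1.06 (SE 0.38), a 2.09-fold difference. The limma SE borrows from the spread of other probe sets, and from the spread of FBXO32 alone it was 0.49.

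The dimmer FBXO32 probe set read 601, 1634, 3839 and 2216 in Korean native pigs 1 to 4, and 349, 863, 1365 and 1023 in Yorkshire pigs 1 to 4. Korean native pig 1 was the lowest of its breed here and lay within the Yorkshire range, and the Korean native pig was higher in 13 of 16 pairs. The mean was 2073 ± 1354 in Korean native pigs, against 900 ± 423 in Yorkshire pigs (SD over 4 pigs each), a log2 difference of 1.05 (SE 0.51, or 0.68 from its own spread). The pigs took nearly the same order on both probe sets, with r = 0.830 over deviations from the breed means of the 8 pigs.

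**Figure D1:**
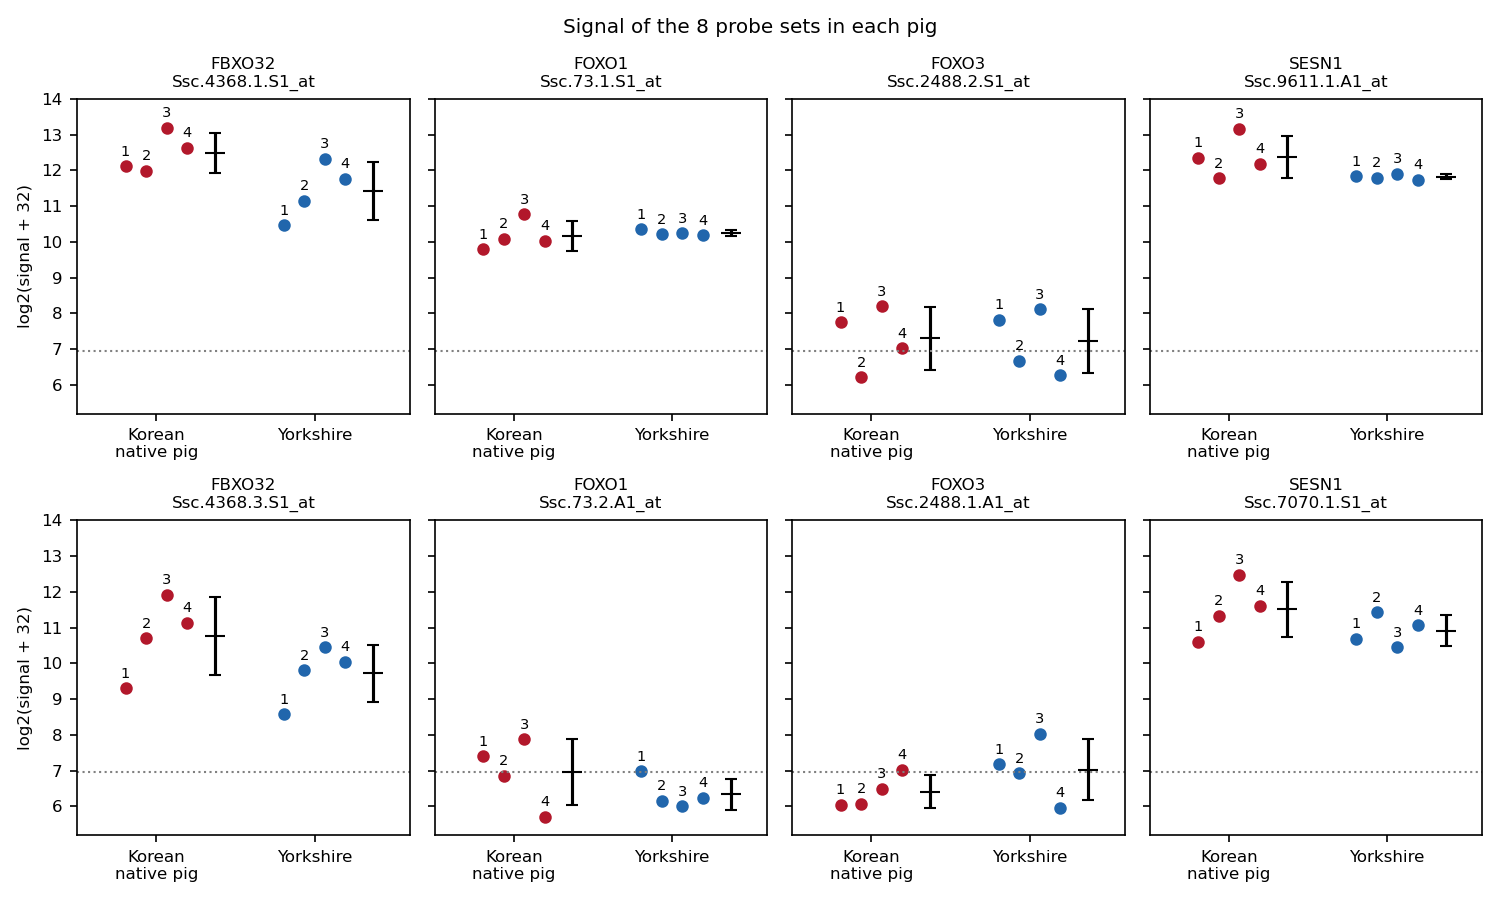
Signal of the 8 probe sets in each pig, as log2(signal + 32), Korean native pigs in red and Yorkshire pigs in blue with the replicate number above each point. The brighter probe set of each gene is in the upper row and the dimmer in the lower. Black bars give the mean and SD of the 4 pigs, and the dotted line marks the 95th percentile of the negative control probe sets (signal 91.5). Both FBXO32 probe sets have a higher mean in Korean native pigs with overlap between breeds, and the FOXO3 probe sets lie around the dotted line.

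Both FBXO32 probe sets had an absolute log2 difference of 1 or more, as had 158 of the 14399 probe sets tested, or 1.10%. This difference was in view when FBXO32 was proposed, so its place among them shows nothing further. The spread within breeds was 0.69 and 0.96 log2 units (pooled SD) for the brighter and the dimmer FBXO32 probe set, against a median of 0.39 over all probe sets tested. A spread at least as wide was found in 13.3% and 3.49% of them. In the limma fit across the array 0 of 14399 probe sets passed an adjusted p of 0.05, or 0%, with 570 at an unadjusted p under 0.05. An exact permutation test per probe set could not pass after adjustment with 4 pigs per breed and is not read here.

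None of the 8 member probe sets separated the breeds, in the sense that all 4 pigs of a breed lay above all 4 of the other. Such separation was found for 369 of the 14399 probe sets tested, or 2.56%.

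Leaving out a single pig kept FBXO32 higher in Korean native pigs and changed the size. The log2 difference of the brighter probe set ranged from 0.74 without Yorkshire 1, the lowest pig, to 1.36 without Yorkshire 3, the highest Yorkshire pig. That of the dimmer probe set ranged from 0.66 without Korean native pig 3 to 1.53 without Korean native pig 1.

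A measure of RNA quality stood high on the array where the FBXO32 probe sets lay farthest apart. Korean native pig 1 and Yorkshire 3 had the highest ratio of 3′ to 5′ signal of housekeeping transcripts, at 3.33 and 3.03 log2 units, against 0.87 to 1.73 on the other 6 arrays. The log2 value of the dimmer minus that of the brighter probe set was -2.81 in Korean native pig 1 and -1.88 in Yorkshire 3. In Yorkshire 1 it was also -1.88, and in the other 5 pigs it lay between -1.72 and -1.28. The part of RNA quality in these values was not tested. Without Korean native pig 1 and Yorkshire 3 the breed difference was 1.49 on the brighter and 1.78 on the dimmer probe set. The hybridisation controls divided the arrays too, with replicates 1 and 3 of both breeds bright (13.14 to 13.36 log2 units) and replicates 2 and 4 dim (12.08 to 12.55). Within the bright arrays the FBXO32 difference was 1.26 and 1.10 for the brighter and the dimmer probe set, and within the dim arrays 0.86 and 0.99, with 2 pigs per breed in each.

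**Figure D2:**
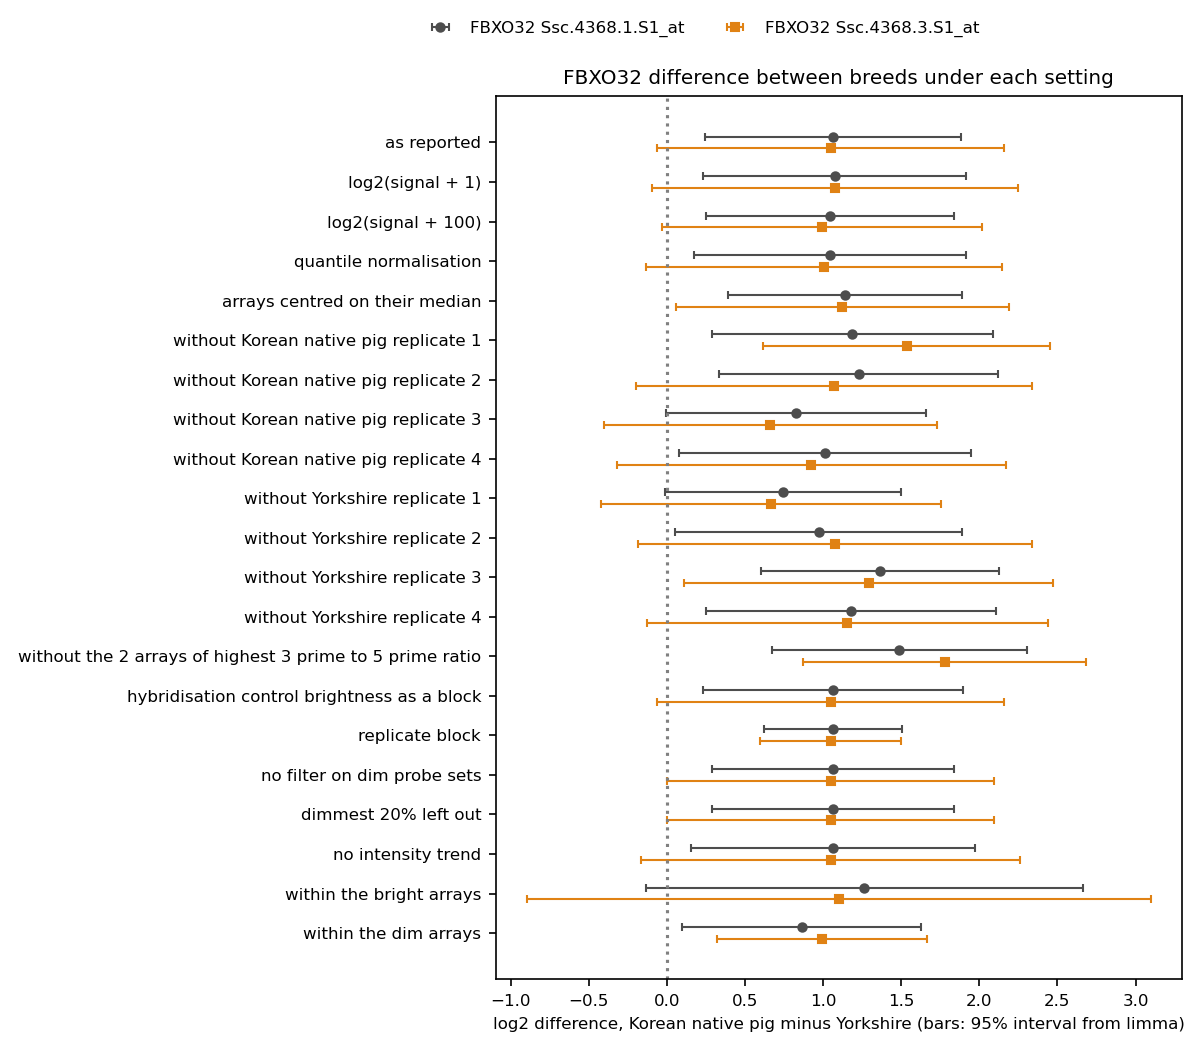
Log2 difference of FBXO32 between breeds (Korean native pig minus Yorkshire) under each setting of the fit, in grey for the brighter and orange for the dimmer probe set, with 95% intervals from limma. All values lie above 0, the lowest being 0.66 without Korean native pig 3. The interval of the dimmer probe set reaches below 0 in the fit as reported (-0.06 to 2.16) and in most of the other settings. That of the brighter is 0.24 to 1.88 as reported. It reaches below 0 without Korean native pig 3, without Yorkshire 1 and within the bright arrays.

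FOXO1 did not share the FBXO32 pattern on its brighter probe set. It had signals of 860, 1061, 1723 and 1012 in Korean native pigs 1 to 4, and 1276, 1160, 1174 and 1128 in Yorkshire pigs 1 to 4. The narrow Yorkshire range lay inside the wider Korean native pig range. The means were 1164 ± 382 in Korean native pigs, against 1185 ± 63.8 in Yorkshire pigs (SD over 4 pigs each), a log2 difference of -0.07 (SE 0.22). The sign of that small difference changed with the scaling, to 0.0038 with arrays centred on their median, and it was -0.27 without Korean native pig 3.

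The dimmer FOXO1 probe set lay near background. It read 137, 84.3, 204 and 20.6 in Korean native pigs 1 to 4, and 94.1, 39.5, 32.1 and 43.8 in Yorkshire pigs 1 to 4. The 95th percentile of the negative control probe sets was 91.5, so 2 Korean native pigs and 3 Yorkshire pigs fell below it. Its log2 difference was 0.62, or 1.15 within the bright and 0.09 within the dim arrays. This probe set was among the dimmest 40% left out of the fit.

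FOXO3 was dim on both probe sets and showed no common direction between them. The brighter probe set read 183, 42.3, 262 and 98.7 in Korean native pigs 1 to 4, and 195, 70.5, 246 and 45.3 in Yorkshire pigs 1 to 4. In both breeds replicates 1 and 3, the arrays of bright hybridisation controls, were the higher pair. The means were 147 ± 96.5 in Korean native pigs, against 139 ± 96.7 in Yorkshire pigs (SD over 4 pigs each), a log2 difference of 0.08 (SE 0.52).

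The dimmer FOXO3 probe set read 34.2, 35.6, 58.3 and 98.2 in Korean native pigs 1 to 4, and 112, 90.3, 229 and 30.2 in Yorkshire pigs 1 to 4. Of these, 3 Korean native pigs and 2 Yorkshire pigs were below the 91.5 of the negative controls, and this probe set too was left out of the fit as dim. Its log2 difference was -0.61, or -1.33 within the bright and 0.11 within the dim arrays.

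SESN1 had the higher mean in Korean native pigs on both probe sets, and much of that lay in Korean native pig 3. The brighter probe set had signals of 5213, 3502, 9128 and 4644 in Korean native pigs 1 to 4, and 3639, 3533, 3824 and 3390 in Yorkshire pigs 1 to 4. Korean native pig 2 lay inside the narrow Yorkshire range and the other 3 above it. The means were 5622 ± 2444 in Korean native pigs, against 3596 ± 183 in Yorkshire pigs (SD over 4 pigs each), a log2 difference of 0.55 (SE 0.25), which was 0.29 without Korean native pig 3. Within the bright arrays the difference was 0.88 and within the dim arrays 0.22.

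The dimmer SESN1 probe set read 1533, 2551, 5701 and 3093 in Korean native pigs 1 to 4, and 1620, 2736, 1364 and 2105 in Yorkshire pigs 1 to 4. Its log2 difference was 0.60 (SE 0.35), or 0.28 without Korean native pig 3. The spread within a breed was unequal on both probe sets, with an SD of 0.58 and 0.77 log2 units in Korean native pigs against 0.07 and 0.43 in Yorkshire pigs for the brighter and the dimmer.

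Korean native pig 3 stood highest of its breed on 7 of the 8 member probe sets, the exception being the dimmer FOXO3 probe set, where Korean native pig 4 was highest. Over all probe sets tested the same array was the highest of its breed in 28.8%. Among Yorkshire pigs, replicate 3 was highest on 5 of the 8, against 33.2% of all probe sets tested. The 8 member probe sets come in pairs from 4 genes, and the dimmer FOXO1 and FOXO3 probe sets were not among those tested. The genes were also proposed with the breed difference in view, so these counts are a description with no test.

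Covariation between the genes was examined over the deviation of each pig from its breed mean, which does not use the difference between breeds. On the brighter probe set of each gene, Pearson's r with FBXO32 was above 0 for FOXO1, FOXO3 and SESN1. By Pearson's r, 0 of the 6 pairs of genes passed an adjusted p of 0.05 in the exact permutation test, with 1 at an unadjusted p under 0.05. For FBXO32 and SESN1 Pearson's r was 0.511 (n = 8, exact permutation within breeds over 576 pairings, two-sided p = 0.0972, adjusted over the 6 pairs p = 0.292). Spearman's rho was 0.405 (exact permutation p = 0.307, adjusted p = 0.412). Korean native pig 3 was high for both genes, and r was 0.190 without it.

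For FBXO32 and FOXO1 r was 0.368 (exact permutation p = 0.340, adjusted p = 0.510) and rho 0.286 (exact permutation p = 0.460, adjusted p = 0.460). The relation rested on Korean native pig 3, without which r was -0.302. For FBXO32 and FOXO3 r was 0.280 (exact permutation p = 0.523, adjusted p = 0.523) and rho 0.405 (exact permutation p = 0.344, adjusted p = 0.412). This r was -0.0233 without Yorkshire 3 and 0.0580 without Korean native pig 3. In Yorkshire 1 FBXO32 was at its lowest, 0.97 log2 units below the breed mean, while FOXO3 was 0.60 above its own.

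Without the 2 pigs farthest from the median FBXO32 deviation, Yorkshire 1 and 3, r was 0.749 with FOXO1, 0.522 with FOXO3 and 0.770 with SESN1. Korean native pig 3, high for all of these genes, was still among the pigs left. Without that pig alone r was -0.302 with FOXO1, 0.0580 with FOXO3 and 0.190 with SESN1. With the values as they stand over all 8 pigs, where the difference between breeds adds to the relation, r with FBXO32 was 0.709 for SESN1, 0.181 for FOXO1 and 0.242 for FOXO3. Spearman's rho was 0.714 for SESN1, -0.0476 for FOXO1 and 0.452 for FOXO3. These values keep the breed difference that was in view when the genes were proposed, so they are a description with no test. Without the 2 pigs farthest from the median FBXO32 level, Yorkshire 1 and Korean native pig 3, these r were 0.570 for SESN1, -0.373 for FOXO1 and 0.457 for FOXO3. Within the bright and the dim arrays there are 4 pigs each, too few for a correlation. With that brightness as a block in the deviations, r with FBXO32 was 0.351 for FOXO1, 0.495 for FOXO3 and 0.563 for SESN1. With arrays centred on their median it was lower, at 0.0999 for FOXO1, 0.120 for FOXO3 and 0.299 for SESN1.

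**Figure D3:**
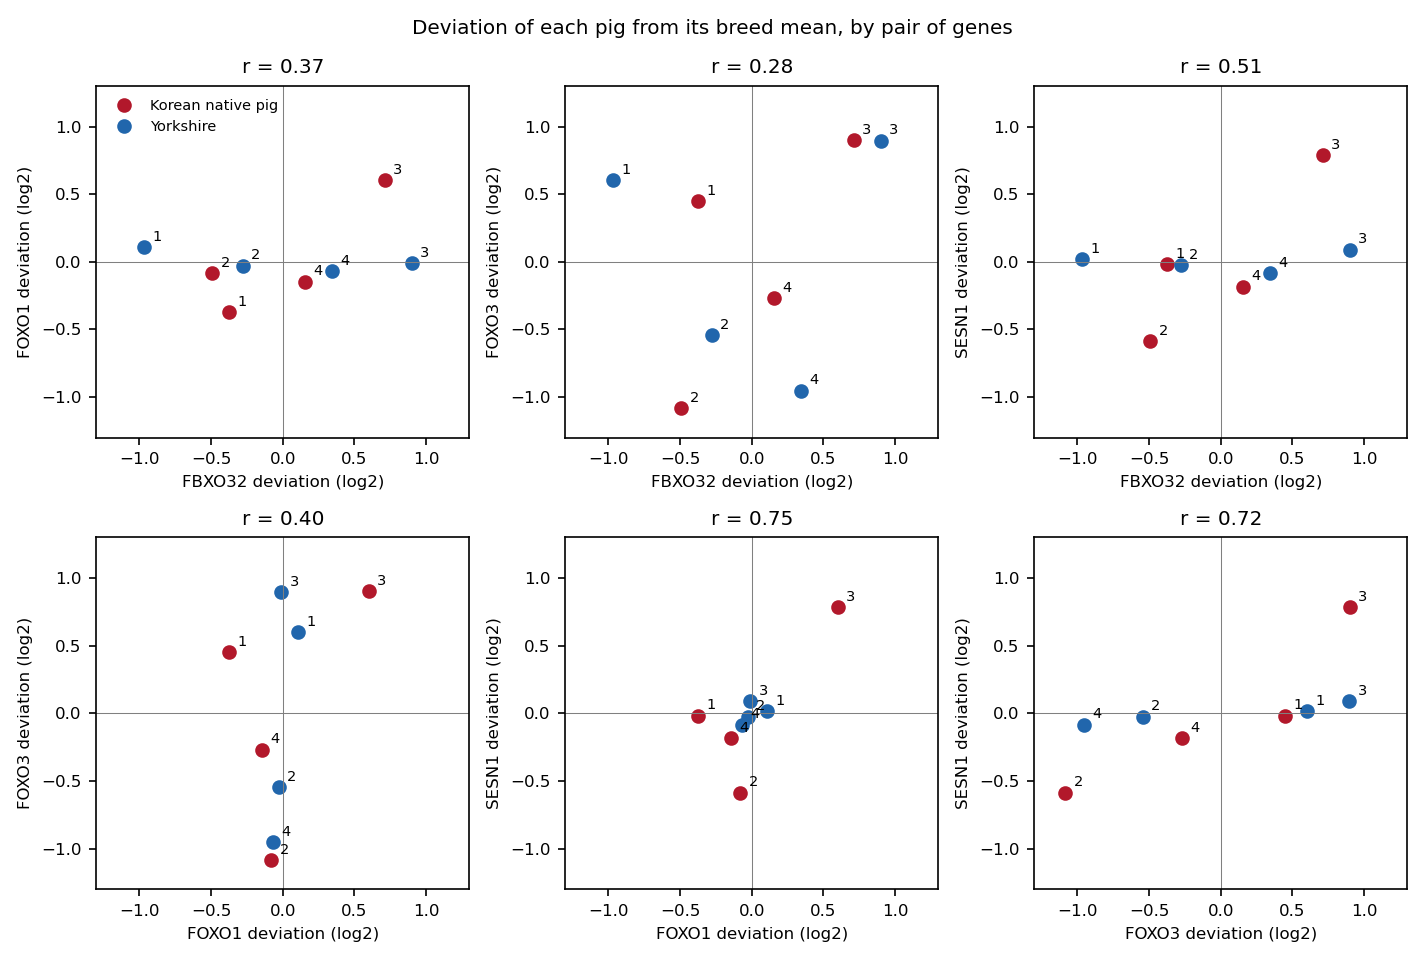
Deviation of each pig from its breed mean, in log2 units, for the 6 pairs of FBXO32, FOXO1, FOXO3 and SESN1 (brighter probe set of each), Korean native pigs in red and Yorkshire pigs in blue with the replicate number beside each point. The title of each panel gives Pearson's r over the 8 pigs. Korean native pig 3 lies at the upper right of every panel, and for FOXO1 and SESN1 the Yorkshire pigs lie close together near 0.

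The closest relation by rank among the 6 pairs was that of FOXO3 and SESN1. Pearson's r was 0.725 (n = 8, exact permutation p = 0.0104, adjusted p = 0.0625) and Spearman's rho 0.929 (exact permutation p = 0.0035, adjusted p = 0.0208). The SESN1 deviations of the Yorkshire pigs lay between -0.083 and 0.089 log2 units, so their ranks rest on small differences. Deviations had the same sign in 7 of 8 pigs, the exception being Korean native pig 1. Without the 2 pigs farthest from the median FOXO3 deviation, Korean native pig 2 and Yorkshire 4, r was 0.613. FOXO3 was above its breed mean on all 4 bright arrays and below it on all 4 dim arrays. SESN1 too was higher on the bright arrays of each breed than on the dim arrays. Its deviations were -0.017 and 0.787 against -0.587 and -0.183 in Korean native pigs. In Yorkshire pigs they were 0.018 and 0.089 against -0.024 and -0.083. The pairings within breeds do not keep bright and dim arrays apart. With brightness as a block r was 0.536, a setting whose 16 pairings are too few for any pair to pass after adjustment. The part of array brightness in this relation was not tested. With arrays centred on their median r was 0.656 (exact permutation p = 0.0295, adjusted p = 0.177). With the other probe set of each gene r was -0.0689, and 3 of the FOXO3 signals that entered the relation were below 91.5. In the Sscrofa11.1 gene table FOXO3 and SESN1 lie on the same chromosome with 3 annotated genes between them, of which 0 code for a protein. Whether this position bears on their relation was not tested.

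For FOXO1 and SESN1 r was 0.755 (exact permutation p = 0.304, adjusted p = 0.510) and rho 0.714 (exact permutation p = 0.102, adjusted p = 0.299). Without the 2 pigs farthest from the median FOXO1 deviation, Korean native pigs 1 and 3, r was -0.141. The relation rested on Korean native pig 3, with r = -0.638 without it, against 0.916 without Korean native pig 1. For FOXO1 and FOXO3 r was 0.399 (exact permutation p = 0.427, adjusted p = 0.512) and rho 0.595 (exact permutation p = 0.149, adjusted p = 0.299), with r = 0.474 without the same 2 pigs. Within genes, the 2 probe sets were related with r = 0.503 for FOXO1, 0.600 for FOXO3 and 0.515 for SESN1 over the same deviations, below the 0.830 of FBXO32.

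Set among all 5330 other genes tested, none of the 3 genes stood at the top of the distribution of r with FBXO32. The median r over deviations was 0.0467, with quartiles of -0.274 and 0.365. An r at least as high as that of SESN1 was found for 14.9% of genes, of FOXO1 for 24.7% and of FOXO3 for 31.1%.

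The genes whose deviations were most like those of FBXO32 were C2, ARFGAP2, TAF1B, TEX30, PEX7 and SIK2, with r of 0.977, 0.966, 0.964, 0.954, 0.950 and 0.950 over 8 pigs. These are the highest of 5330 values, all of which share the same 8 arrays, and carry no test. C2, a complement component, had a signal below 91.5 in 4 pigs. Unlike FBXO32, SIK2, a salt-inducible kinase, had the lower mean in Korean native pigs (log2 difference -0.51), as did TAF1B (-0.46), a subunit of an RNA polymerase I factor. ARFGAP2 (-0.17) and C2 (-0.12) were lower by less. TEX30 had the higher mean in Korean native pigs (0.44), and PEX7, the receptor that imports a class of peroxisomal enzymes, differed by 0.05. Other probe sets of ARFGAP2, TAF1B and SIK2 had r between -0.30 and 0.63, so the high r belonged to single probe sets of those genes.

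The most opposite genes were STRADB, a pseudokinase partner of the AMPK-activating kinase LKB1, at r = -0.973, the glyoxalase GLO1 at -0.962 and the zinc finger gene ZNF639 at -0.959. STRADB had signals of 10477, 11993, 8396 and 9600 in Korean native pigs 1 to 4, and 14166, 12989, 9479 and 10714 in Yorkshire pigs 1 to 4. It was lowest in replicate 3 of each breed, where FBXO32 was highest. Other STRADB probe sets had r between -0.48 and 0.16 with FBXO32.

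**Figure D4:**
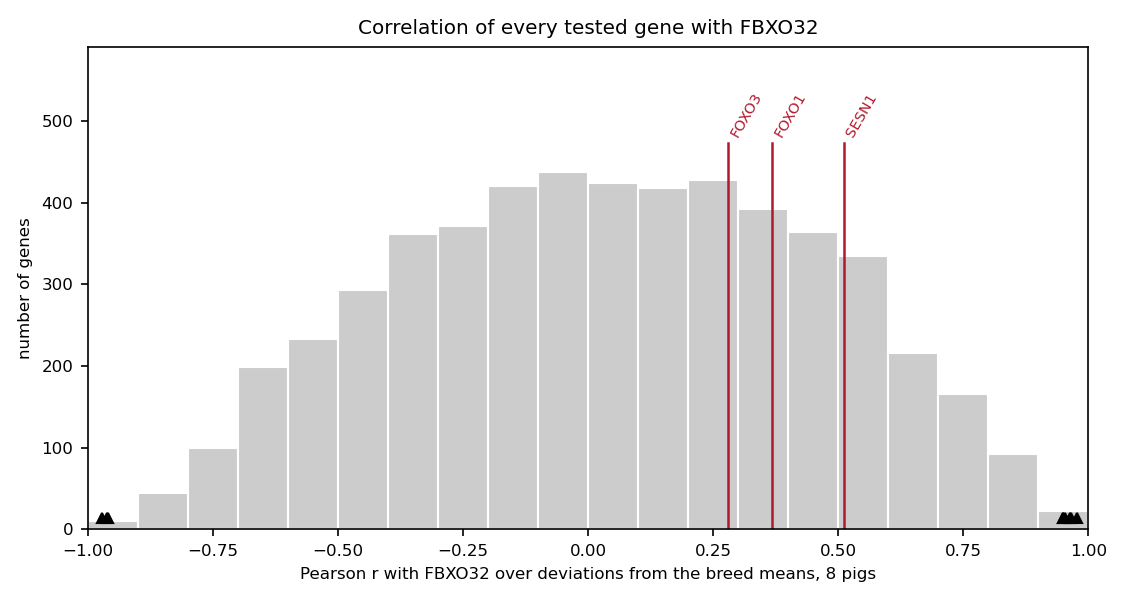
Number of genes (vertical axis) by their Pearson r with FBXO32 over deviations from the breed means of 8 pigs (horizontal axis), for 5330 genes. Red lines mark FOXO3, FOXO1 and SESN1 at 0.280, 0.368 and 0.511, inside the bulk of the distribution, and triangles mark the 6 genes of highest and the 3 of lowest r.

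Other genes of the pathway were read from lists of upstream signals, FOXO targets, ubiquitin ligases, autophagy, glucocorticoid response and ligase substrates, and the value at which a gene or list median is said to stand is its log2 difference. Of 5331 genes tested, 0 passed limma's adjusted p of 0.05, or 0%, so 0 genes of these lists passed in either direction. The breeds did not overlap in 120 of all genes tested, or 2.25%, namely in 61 genes higher in Korean native pigs, or 1.14%, and in 59 lower, or 1.11%. The median log2 difference over all genes was -0.00255.

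Among 14 genes of insulin, IGF, myostatin and stress signalling, 8 were above 0 and 6 below, with a median of 0.02. TGFBR1, a receptor for TGF-beta, did not overlap between breeds, at 1141, 926, 1586 and 1107 in Korean native pigs 1 to 4 and 840, 729, 777 and 603 in Yorkshire pigs 1 to 4. Its log2 difference was 0.65 (SE 0.21, limma adjusted p = 0.999), with its other probe sets at 0.51 and 0.18. MSTN, which encodes the growth inhibitor myostatin, was at 0.47 (SE 0.65) and ranged from -0.06 without Yorkshire 3 to 1.03 without Korean native pig 1. IGF1R, the IGF1 receptor, was at 0.44, with 3 arrays below the 91.5 of the negative controls. Of the kinases that phosphorylate FOXO proteins, AKT1 was at 0.03 (SE 0.24) and AKT2 at -0.21 (SE 0.18). The kinase genes SGK1 and PRKAA2 of the same list were at -0.34 (SE 0.28) and -0.32 (SE 0.31). PRKAA1 and PDPK1 were at 0.20 (SE 0.34) and 0.15 (SE 0.21).

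Of 15 known FOXO target and growth-arrest genes, 10 were above 0 and 5 below, with a median of 0.29. The list held its sign under both other scalings, 0.32 by quantile normalisation and 0.36 after median centring, and its median was 0.20 to 0.33 with each pig left out. CCNG2, an atypical cyclin tied to cell cycle exit, did not overlap between breeds, at 979, 681, 1251 and 1054 in Korean native pigs 1 to 4 and 627, 560, 562 and 264 in Yorkshire pigs 1 to 4. Its log2 difference was 0.97 (SE 0.28, limma adjusted p = 0.999), or 0.70 without Yorkshire 4.

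PIK3IP1, an inhibitor of PI3 kinase, was at 0.66 (SE 0.30), or 0.42 without Yorkshire 3. PDK4, the kinase that shuts off pyruvate dehydrogenase in fasting and a FOXO target in rodent muscle, had the lower mean in Korean native pigs. PDK4 read 637, 2669, 20248 and 14876 in Korean native pigs 1 to 4, and 16956, 5584, 12126 and 10881 in Yorkshire pigs 1 to 4. The low mean came from Korean native pigs 1 and 2, and the log2 difference of -1.13 (SE 0.86) was -0.18 without Korean native pig 1. KLF15, a glucocorticoid-induced factor, was at 0.38, TXNIP, an inhibitor of thioredoxin, at -0.22 and GADD45A, a stress gene of atrophying muscle, at -0.33.

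Of 13 ubiquitin ligases and their partners other than FBXO32, 8 were above 0 and 5 below, with a median of 0.02. FBXO21, another F-box ligase of the FOXO programme in mouse muscle, was at 0.87 (SE 0.60) and at 0.10 without Yorkshire 4, where its signal was 30.7, and its 4 other probe sets were between -0.45 and -0.10. CBLB, a ligase that acts on insulin receptor substrate, was at -0.45 between breeds, or -0.24 without Yorkshire 3, and had an r of 0.949 with FBXO32 over deviations. UBE2B, a ubiquitin-conjugating enzyme of muscle, was at 0.25 (SE 0.20), and at 0.15 to 0.40 with each pig left out. CUL1, the scaffold of the ligase to which FBXO32 belongs, differed by 0.02, and TRIM55, a relative of TRIM63, by 0.01.

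Among 19 genes of autophagy and the lysosome 9 were above 0 and 10 below, with a median of -0.0064. Those numbers turned to 16 above and 3 below with arrays centred on their median, where 3278 of all 5331 genes were above 0. ATG7, which activates ATG12 and LC3, was at 0.47 and 0.11 without Yorkshire 4. The cargo receptor gene SQSTM1 was at 0.37, or 0.11 without Yorkshire 2. GABARAPL1, an LC3 relative, was at -0.29, or -0.09 without Yorkshire 3. Of 13 glucocorticoid-responsive genes 8 were above 0 and 5 below, with a median of 0.12, which ranged from -0.06 to 0.12 with each pig left out. The clock gene PER1 did not overlap between breeds, at 0.88, and a second probe set was at -0.45. CEBPD, a C/EBP transcription factor, had a log2 difference of 0.45, which became -0.02 with Korean native pig 3 left out. HSD11B1, which activates glucocorticoids inside cells, was at -0.43, or -0.02 without Yorkshire 1. FKBP5, induced by the glucocorticoid receptor, was at 0.23.

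Of 11 genes listed as substrates of the FBXO32 or TRIM63 ligases, 10 were below 0 and 1 above, with a median of -0.26. The list holds abundant fibre genes that also serve as muscle markers, and transcripts do not report the proteins on which the ligases act. MYOD1, the myogenic factor degraded through FBXO32 in mouse cells, was at -0.37 (SE 0.43) and at 0.0036 without Korean native pig 4. Creatine kinase CKM was at -0.33 and the fast light chain MYL1 at -0.33, both at -0.19 without Korean native pig 4. Desmin, DES, was the gene above 0, at 0.17. With quantile normalisation the list was even, at 5 above and 6 below with a median of -0.0041, and it was 0.02 within the bright and -0.52 within the dim arrays.

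**Figure D5:**
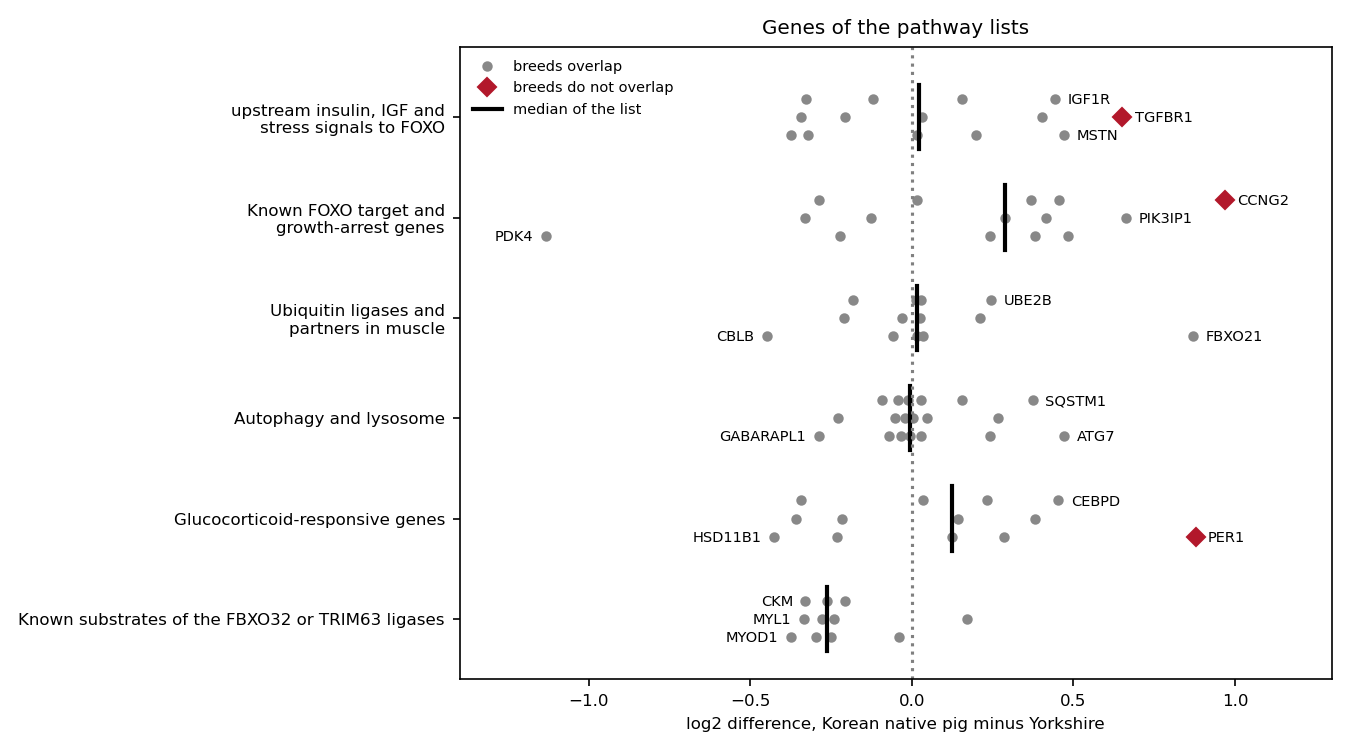
Log2 difference between breeds (Korean native pig minus Yorkshire) of each tested gene in the 6 pathway lists, with the median of each list as a black bar. Red diamonds are the genes whose breeds do not overlap (TGFBR1, CCNG2 and PER1), and labels mark the named genes. The substrate list lies mostly below 0 and the FOXO target list mostly above 0.

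The samples carried the transcripts of skeletal muscle, with 9 of 12 fibre markers tested and a summed signal of 413328 to 612792 in Korean native pigs and 529432 to 821102 in Yorkshire pigs. The summed signals of other cell types' markers overlapped between breeds, ranging from 4172 to 4814 in Korean native pigs and 4202 to 5889 in Yorkshire pigs for 7 of 8 endothelial markers, and from 9762 to 16798 in Korean native pigs and 12832 to 22630 in Yorkshire pigs for 5 of 7 matrix markers. For 5 of 8 adipocyte markers the range was 3649 to 9814 in Korean native pigs and 4437 to 8174 in Yorkshire pigs. All 5 matrix markers tested were below 0, with a median of -0.34, which was -0.32 after quantile normalisation and -0.50 to -0.25 with each pig left out. Of the 5 adipocyte markers 4 were below 0, with a median of -0.58, and of the 7 endothelial markers 3 were below 0, with a median of 0.02. Of the 9 fibre markers 8 were below 0, with a median of -0.31, which was -0.0041 after quantile normalisation. Of 2 nerve markers tested, MBP, a myelin protein gene, did not overlap between breeds and was at 1.03, with its other probe sets at 0.87, 0.67 and 0.03, while S100B was at -0.17. In bulk muscle, fewer cells of a type and less RNA per cell cannot be told apart. The part of cell makeup in the FBXO32 difference was not tested.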

How the data were processed

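Total RNA was extracted with Trizol, labelled with biotin and hybridised to 1-colour Affymetrix arrays, per the labels' protocols. The authors deposited a linear intensity (signal) for each probe set, and the tool GCOS 1.3 appears in the submitters' processing notes. The sources used here do not give how signals were summarised, scaled or filtered. After trimming 2% at both ends the mean was 500.1 or 500.2 on every array, so only differences relative to the rest of an array remain. The median signal per array was 135 to 185. The table held 0 columns beyond the 8 arrays, and 0 pairs of arrays were identical.

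Gene names came from GEO's platform annotation, with exactly 1 symbol for 10099 probe sets, several for 198 and none for 13826. By gene number 9989 were found in the Sscrofa11.1 table, and 0 symbols changed. No sequence or position is printed.

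Values were taken as log2(signal + 32), where folds of dim probe sets come out too small. Left out were 124 control probe sets and the dimmest 40% of the rest (limit near a signal of 98.6), so that 14399 were tested. The 6 member probe sets that passed were fitted with all others by limma 3.58.1 in R 4.3.3 (lmFit, eBayes with an intensity trend, no covariates, Benjamini-Hochberg adjustment). The 2 dim member probe sets were added to the same fit only for their standard errors. The negative control limit is the 95th percentile of 23 probe sets. A gene is represented by its tested probe set of highest mean signal.

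Correlations used deviations from breed means and an exact permutation test within breeds. The scripts were tested on simulated data. The members and gene lists were chosen with earlier results of these data known. Named list genes are those whose breeds do not overlap, up to 4 per list, or the 3 of largest difference where fewer than 3 do; the other list genes given were chosen after their values were seen. The 6 most and 3 least correlated genes are named for FBXO32. Same-numbered arrays did not deviate together in every case (r of -0.0434, 0.306, 0.102 and 0.0536), so the numbers were not taken as pairs.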

Additional observations from a re-analysis of the deposited data

How the results depend on the processing

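The count of probe sets past the threshold was 0 under every setting of the fit except the replicate block, with 1 probe set (limma adjusted p = 0.00943), which was not a member. With each pig left out the count was 0 in all 8 fits. The exact permutation test per probe set could not pass after adjustment with 4 pigs per breed and says nothing about stability. FBXO32 kept its sign on both probe sets, from 0.66 to 1.78 over all settings. With the replicate block the SE of the brighter FBXO32 probe set was 0.20 in place of 0.38 at the same difference. The numbers go with array brightness in both breeds, replicates 1 and 3 being bright and 2 and 4 dim. They were not shown to pair single arrays, and Korean native pig 1 deviated most like Yorkshire 3 (r = 0.355), not Yorkshire 1. The brighter FOXO3 difference ranged from -0.24 to 0.44 and the brighter FOXO1 difference from -0.27 to 0.05 with each pig left out, and the brighter SESN1 difference from 0.29 to 0.75.

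Correlations were the least stable values. With each pig left out, r ranged from -0.302 to 0.644 for FBXO32 and FOXO1, from -0.0233 to 0.694 for FBXO32 and FOXO3, from 0.190 to 0.699 for FBXO32 and SESN1, from -0.187 to 0.686 for FOXO1 and FOXO3, from -0.638 to 0.916 for FOXO1 and SESN1, and from 0.554 to 0.790 for FOXO3 and SESN1. With the replicate block r was -0.696 for FBXO32 and FOXO1, -0.172 for FBXO32 and FOXO3, -0.0217 for FBXO32 and SESN1, and 0.307 for FOXO3 and SESN1. With the other probe set of each gene r was -0.253 for FBXO32 and FOXO1, -0.315 for FOXO1 and FOXO3, and -0.0689 for FOXO3 and SESN1, but 0.689 for FBXO32 and SESN1 and 0.276 for FBXO32 and FOXO3. With arrays centred on their median all 6 r were lower and above 0. The relation of FOXO3 and SESN1 passed by rank (rho 0.929), with log2(signal + 100) (r = 0.733), and without Korean native pig 1 or 3 (0.752 and 0.765). It did not pass under the other settings, among them median centring (0.656), quantile normalisation (0.689) and values that keep the breed means (r 0.603, rho 0.786). The cause of these changes was not tested. The 2 FOXO3 probe sets and the dimmer FOXO1 probe set lie near the negative controls, which limits what their values can show. The values within bright and dim arrays were added after the data were seen.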

Other observations

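How the listed genes varied with FBXO32 from pig to pig is given as values with no test. Over deviations from the breed means the median r with FBXO32 was 0.509 for the 11 listed ligase substrates. It was 0.469 for the 9 muscle fibre markers, against 0.0467 for all genes. It was 0.378 for FOXO targets, 0.213 for autophagy, 0.157 for upstream signals, 0.0422 for ubiquitin ligases and -0.0964 for glucocorticoid-responsive genes. The substrate and fibre marker lists share CKM, DES, MYL1, MYH7 and TTN, so their medians are not separate observations. The highest r among the substrates were those of MYBPC1, TNNI1 and MYH7, at 0.712, 0.676 and 0.632. Other substrates were lower, with MYOD1 at 0.201, TNNI2 at 0.0328 and DES, the only substrate below 0, at -0.0232. The fibre marker MYH2 was at -0.669, so fibre genes did not all vary with FBXO32. Between breeds MYBPC1, TNNI1 and MYH7 had log2 differences of -0.21, -0.30 and -0.28, opposite in sign to FBXO32. In the breed difference the substrate list as a whole was even by quantile normalisation. The r of list genes with FBXO32 were not computed under another scaling. Single genes of the lists reached 0.917 for UBE4B, a ubiquitin chain elongation factor, 0.880 for IGF1 and 0.852 for TXNIP, and -0.825 for PRKAA2, a catalytic subunit of AMP-activated kinase. All of these rest on the same 8 arrays.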
